A study of Mus musculus with 6 samples.

Results

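Cyclins and their partner kinases that carry cells through G1, S phase and mitosis were followed in mouse embryoid bodies with and without HOXB4: Ccnd1, Ccnd2, Ccnd3, Ccne1, Ccne2, Ccna2, Ccnb1, Cdk2, Cdk4 and Cdk6. A gene was counted where the array annotation gave a feature that gene's symbol alone, and 8 of the 10 genes were found in this way among 30702 genes in all. The feature listed for Ccnd1 is also listed for the microRNA gene Mir3962 and is described apart, and no feature was listed for Ccnb1, so the cyclin B step is not analysed here.

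Embryoid bodies, aggregates of differentiating embryonic stem cells, were made from a stem cell line called iRunx in the labels. At day 4 they were dissociated, and Flk1-positive, PDGFRα-negative cells were sorted; Flk1 marks mesoderm from which endothelium and blood arise. HOXB4 cells (3 arrays) carried a retrovirus expressing tdTomato/HOXB4, while control cells (3 arrays) were sorted without that expression; both groups share the iRunx background, the day and the gate. The labels describe 3 independent replicate experiments. They do not say whether controls received an empty virus or whether a Runx gene was induced, and the array feature for Hoxb4 is shared with Mir10a, so the transgene could not be read separately. That shared feature read 4.93, 4.24 and 4.74 in HOXB4 arrays and 4.63, 4.96 and 4.40 in control arrays, with overlap, and whether its probes can detect the viral transcript is not given in the labels.

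D-type cyclins bind Cdk4 and Cdk6 in G1 and, with them, phosphorylate the retinoblastoma protein, which frees E2F transcription factors. E-type cyclins with Cdk2 carry that switch into S phase, cyclin A2 serves S phase and G2, and cyclin B1 with Cdk1 drives mitosis. Pluripotent stem cells are known for a short G1 phase, which lengthens as they differentiate.

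Values are RMA summaries on the log2 scale, in which 1 unit is a doubling of signal. They can be compared between arrays for 1 gene but not between genes. The 6 arrays had background medians of 3.06 to 3.15 and median gene values of 5.10 to 5.22, and all 8 genes lay above the median gene. Kdr, which encodes Flk1, stood at 13.68 to 14.33 over the 6 arrays, and the feature shared by Pdgfra and Mir7025 at 5.95 to 7.15, above the median gene. The cells were sorted against the PDGFRα protein, which this shared RNA reading does not measure. HOXB4 2 stood apart from its group. Over genes above the median, its root mean square log2 distance was 0.57 from HOXB4 1 and 0.50 from HOXB4 3, against 0.25 from control 3, 0.34 from control 1 and 0.43 from control 2, while HOXB4 1 and 3 were 0.33 apart. Control 2 was no nearer to the other controls (0.42 and 0.43) than to HOXB4 3 (0.40) and HOXB4 1 (0.42). The range of each of the 8 differences over the fits that leave out 1 array is therefore given, and for other genes where an array moved the value by over 1.5 times. In sorted bulk cells, fewer cells of a type and less RNA per cell cannot be told apart.

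Of the 8 genes, 7 had a lower mean in HOXB4 cells, with Cdk6, Ccnd2 and Ccne2 showing the largest differences and Cdk4 and Cdk2 the smallest. None of the 8 reached an adjusted p under 0.05 in limma (empirical Bayes, adjusted by Benjamini-Hochberg), and the share of all 30702 genes that did was 0%. Before adjustment 2513 genes had p under 0.05 in limma, and 1974 in the same linear model without moderation, which also called 0 genes. Of all genes, 60.0% had a difference below 0. Ccnd2 and Ccne2 were the 2 of the 8 lower at an unadjusted p of 0.05, where the share of all genes was 5.95%, and 0 of the 8 were higher at that p, against 2.23%. Ccnd2 and Ccna2 had every HOXB4 value below every control value, 2 of 8 against 10.2% of all genes, and 0 of 8 had every HOXB4 value above, against 3.24%. The count of 2 became 5 without HOXB4 2 and 4 without control 2 or without control 3. With fewer arrays any gene separates more easily. The share of all genes in those fits was not computed, so these counts cannot be set against 10.2%. The median difference of the 8 genes was -0.24, against -0.039 over all genes tested. With 1 array left out it ran from -0.32 without HOXB4 2 to -0.20 without control 1, and it was -0.17 under cyclic loess scaling. All 8 lay above the median gene, and a median over such brighter genes alone was not computed. With so few genes, these counts describe the 8 and are not set apart from the background by a test.

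**Figure D1:**
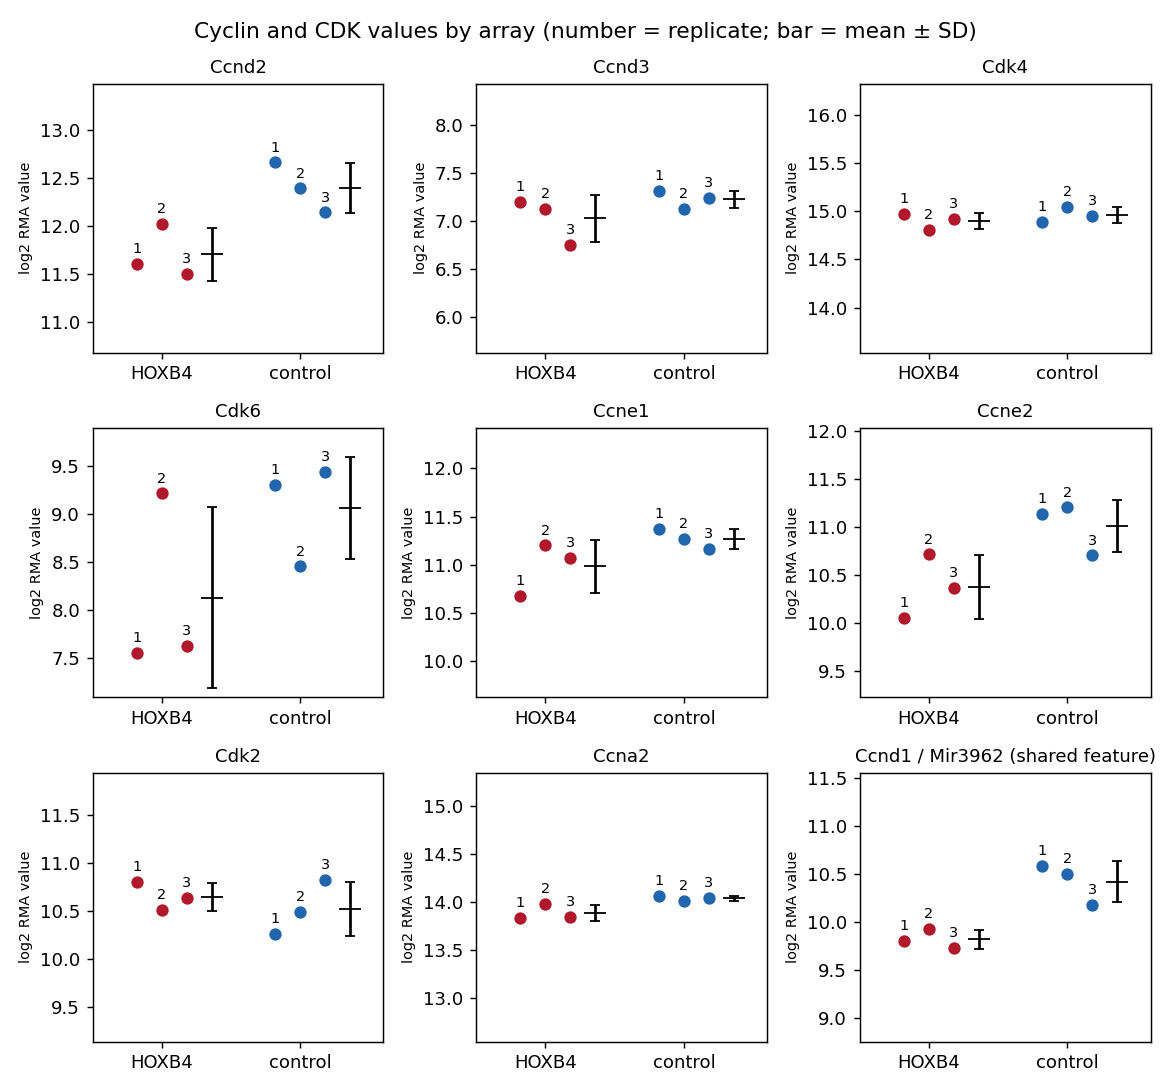
Log2 RMA value (vertical axes, equal span in each panel) of the 8 measured genes and of the feature shared by Ccnd1 and Mir3962, in HOXB4 arrays (red, left) and control arrays (blue, right). Numbers are replicates and black bars are means ± SD (n = 3 each). Ccnd2, Ccna2 and the shared feature show no overlap, and HOXB4 2 sits with the controls for Cdk6.

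Among the D-type cyclins, Ccnd2 showed the larger difference. Its log2 values were 11.60, 12.02 and 11.50 in HOXB4 arrays 1 to 3, against 12.66, 12.39 and 12.14 in controls 1 to 3. The groups did not overlap, and HOXB4 2 lay nearest to the controls. The mean was 11.70 ± 0.28 in HOXB4 cells and 12.40 ± 0.26 in control cells (SD, n = 3 each), a log2 difference of -0.69 (SE 0.19), or 1.62-fold lower. limma's unadjusted p was 0.0080 and its adjusted p 0.605, a value tied over many genes. The difference was -0.85 without HOXB4 2 (adjusted p = 0.142) and ran from -0.85 to -0.56 when any 1 array was left out.

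Ccnd3, the D-type cyclin best known from lymphocytes and maturing erythroid cells, differed less. It stood at 7.20, 7.13 and 6.75 in HOXB4 arrays and at 7.31, 7.13 and 7.24 in control arrays. HOXB4 3 alone lay clearly below the controls, and the other two HOXB4 values lay at their level. The log2 difference was -0.20 (SE 0.14, limma adjusted p = 0.693), and with 1 array left out it ran from -0.29 to -0.06, the last without HOXB4 3.

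The feature shared by Ccnd1, the D-type cyclin induced by mitogens in many cells, and Mir3962 read 9.80, 9.93 and 9.73 in HOXB4 arrays, against 10.58, 10.50 and 10.18 in controls. All 3 HOXB4 values lay below all 3 control values, including HOXB4 2. Its log2 difference was -0.60 (SE 0.13, limma adjusted p = 0.398 over all 65956 features), and it ran from -0.72 to -0.52 when 1 array was left out. RefSeq places Ccnd1 on chromosome 7 and Mir3962 on chromosome 1. The feature's identifier carries the number of chromosome 7, where Ccnd1 lies, as the identifiers of the 8 genes carry that of theirs. How far each of the 2 listed genes contributes to the signal was not tested. The feature names both, so it stays outside the counts of the 8.

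The kinases that pair with these cyclins, Cdk4 and Cdk6, gave values with a span over the 6 arrays of 0.24 and 1.88, the second the widest of the 8 genes. Their promoters are shown because, of the 8 genes, these related kinases had the smallest and the largest difference. Each line gives the 250 bases before the start site of the RefSeq promoter table (GRCm38.p6, both on the plus strand), Cdk4 at chr10:127063285-127063534 and Cdk6 at chr5:3343643-3343892. The Cdk6 site is a downstream one, since the RefSeq gene begins further upstream, before this stretch.
Cdk4: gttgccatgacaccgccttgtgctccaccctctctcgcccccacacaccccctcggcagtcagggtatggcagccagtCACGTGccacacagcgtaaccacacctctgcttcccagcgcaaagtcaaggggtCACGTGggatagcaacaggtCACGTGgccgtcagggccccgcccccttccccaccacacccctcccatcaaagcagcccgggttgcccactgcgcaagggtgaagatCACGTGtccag
Cdk6: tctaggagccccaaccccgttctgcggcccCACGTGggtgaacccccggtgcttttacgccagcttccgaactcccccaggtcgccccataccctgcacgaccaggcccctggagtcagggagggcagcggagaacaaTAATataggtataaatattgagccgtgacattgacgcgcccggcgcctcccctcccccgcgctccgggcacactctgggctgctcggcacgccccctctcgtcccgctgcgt
Capitals mark matches, on either strand, to 5 motifs that were searched. These were the E-box CACGTG bound by MYC-type factors, the E2F words TTTCCCGC, TTTGGCGC, TTTCGCGC and TTTGCCGC, the box CCAAT, the cell cycle homology element TTTGAA, and the homeodomain core TAAT. Cdk4 held 4 E-boxes, the nearest ending 6 bases before the start, and Cdk6 held 1 E-box and 1 TAAT. Over 32851 RefSeq promoters, 6.02% held an E-box and 54.9% a TAAT in the same 250 bases. These matches describe letters and are not shown to be bound.

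Cdk4 stood at 14.97, 14.81 and 14.92 in HOXB4 arrays and at 14.89, 15.05 and 14.95 in control arrays. The groups overlapped, although HOXB4 2 lay below every control and control 2 above every HOXB4 value. The log2 difference was -0.06 (SE 0.09, 95% interval -0.28 to 0.15, limma adjusted p = 0.842). With 1 array left out it ran from -0.10 to -0.02, and under cyclic loess scaling it turned to 0.04.

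Cdk6 values were 7.55, 9.21 and 7.62 in HOXB4 arrays, against 9.30, 8.45 and 9.43 in control arrays. HOXB4 1 and 3 lay below every control, whereas HOXB4 2 lay within the control range. The mean was 8.13 ± 0.94 in HOXB4 cells and 9.06 ± 0.53 in control cells (SD, n = 3 each), a log2 difference of -0.93 (SE 0.48, 95% interval -2.09 to 0.22, limma adjusted p = 0.635). It was -1.47 without HOXB4 2 (adjusted p = 0.142) and -0.65 without HOXB4 1.

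Endothelial markers split the arrays into the same 2 sets of 3 as Cdk6, in the opposite direction. The mean of 14 endothelial genes, among them Pecam1, Cdh5, Tek and Fli1, was 10.63, 8.19 and 9.46 in HOXB4 arrays and 8.45, 9.73 and 8.36 in control arrays. The 3 arrays highest in endothelial markers, HOXB4 1, control 2 and HOXB4 3, were the 3 lowest in Cdk6. The smooth muscle and pericyte markers ran the other way, with means of 6.71, 8.11 and 6.85 in HOXB4 arrays and 8.17, 7.55 and 8.15 in control arrays. Control 2 shared this lower Cdk6 and higher endothelial level without HOXB4. The part of cell composition in the Cdk6 difference was not tested.

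**Figure D2:**
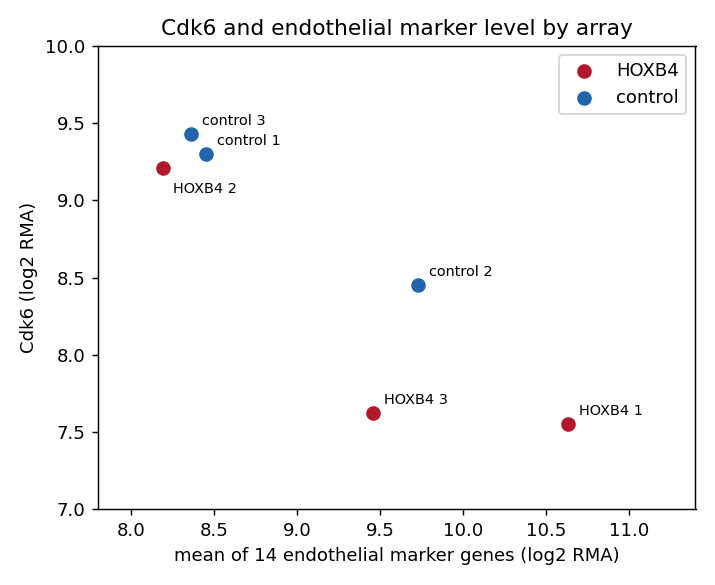
Cdk6 (vertical axis, log2 RMA value) against the mean of 14 endothelial marker genes (horizontal axis, log2 RMA value), 1 point per array, HOXB4 in red and control in blue. HOXB4 2, control 1 and control 3 lie together at the upper left, with Cdk6 between 9.21 and 9.43.

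At the step from G1 into S phase, both E-type cyclins had lower means in HOXB4 cells, Ccne2 more than Ccne1. Ccne2 stood at 10.05, 10.71 and 10.36 in HOXB4 arrays and at 11.13, 11.20 and 10.70 in control arrays. HOXB4 2 and control 3 met at almost the same value, and otherwise the groups were apart. Its log2 difference was -0.64 (SE 0.20, 1.55-fold lower, limma unadjusted p = 0.018, adjusted p = 0.605), or -0.80 without HOXB4 2 (adjusted p = 0.170) and -0.47 without HOXB4 1.

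Ccne1 stood at 10.67, 11.20 and 11.07 in HOXB4 arrays and at 11.37, 11.27 and 11.16 in control arrays. HOXB4 1 was low, while HOXB4 2 lay above control 3. The log2 difference was -0.29 (SE 0.15, limma adjusted p = 0.639), and with 1 array left out it ran from -0.40 without HOXB4 2 to -0.13 without HOXB4 1.

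Cdk2, the kinase that both E-type cyclins and cyclin A2 activate, was the 1 gene of the 8 with a higher mean in HOXB4 cells. Its promoter is shown as that of the 1 gene with a difference above 0: the 250 bases before the RefSeq start lie on the minus strand at chr10:128705052-128705301 (GRCm38.p6).
Cdk2: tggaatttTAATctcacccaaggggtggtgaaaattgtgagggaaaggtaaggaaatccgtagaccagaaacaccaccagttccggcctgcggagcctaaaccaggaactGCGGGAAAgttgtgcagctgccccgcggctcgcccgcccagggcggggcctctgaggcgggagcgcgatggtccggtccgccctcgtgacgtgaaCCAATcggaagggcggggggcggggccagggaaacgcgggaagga
Capitals mark the same motifs, here 1 TAAT, 1 E2F word on the opposite strand that ends 133 bases before the start, and 1 CCAAT. An E2F word stood in 1.86% of the RefSeq promoters and CCAAT in 33.8%. Cdk2 values were 10.80, 10.51 and 10.64 in HOXB4 arrays, against 10.26, 10.49 and 10.82 in control arrays. The highest and the lowest value were both controls. The log2 difference was 0.13 (SE 0.16, 95% interval -0.26 to 0.51, limma adjusted p = 0.820), and it ran from -0.01 without control 1 to 0.27 without control 3. No test set Cdk2 against its cyclins.

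Ccna2, the cyclin of S phase and G2, had a small difference with little spread. It stood at 13.83, 13.98 and 13.84 in HOXB4 arrays, against 14.06, 14.01 and 14.04 in control arrays. The groups did not overlap, by a margin of less than the spread among HOXB4 arrays. The log2 difference was -0.15 (SE 0.09, 1.11-fold lower, limma adjusted p = 0.643). With 1 array left out it ran from -0.20 to -0.13, and it was -0.05 under cyclic loess scaling. For mitosis, Cdk1 and Ccnb2, a second B-type cyclin, were looked up for mention after their values were seen, in place of Ccnb1. Cdk1 read 12.20, 12.08 and 12.09 in HOXB4 arrays and 12.04, 12.11 and 11.98 in controls, a log2 difference of 0.08 (SE 0.09). Ccnb2 read 13.16, 13.32 and 13.33 in HOXB4 arrays and 13.22, 13.15 and 13.31 in controls, a log2 difference of 0.05 (SE 0.09). Both overlapped between groups. With 1 array left out, Cdk1 ran from 0.04 to 0.11 and Ccnb2 from 0.01 to 0.10.

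**Figure D3:**
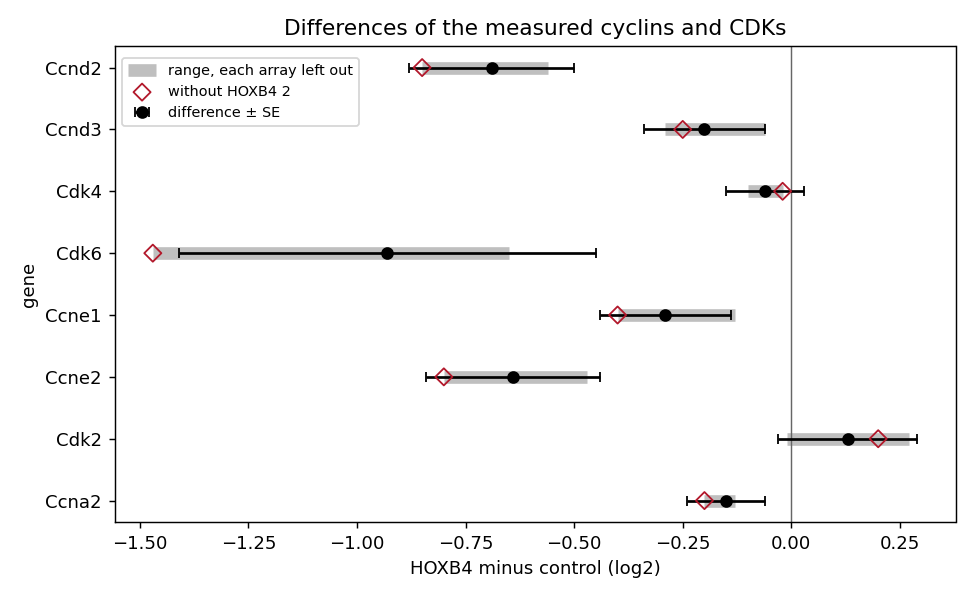
HOXB4 minus control on the log2 scale (horizontal axis) for each measured gene, ordered by cell cycle step. Points with bars are the difference ± SE over all 6 arrays, grey bands the range when each array was left out, and open diamonds the value without HOXB4 2. Cdk6 has the widest band, from -1.47 to -0.65, and Cdk2 alone lies above 0.

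Whether related genes differed by unequal amounts was asked with the log2 difference between 2 of them within each array, in 3 pairs. Ccnd3 minus Ccnd2 was -4.39, -4.90 and -4.75 in HOXB4 arrays, against -5.35, -5.26 and -4.90 in control arrays. This shift of 0.49 towards Ccnd3 had p = 0.10 in a two-sided exact permutation test (0.15 adjusted over the 3 pairs). Ccne1 minus Ccne2 was 0.61, 0.49 and 0.71 in HOXB4 arrays, against 0.24, 0.07 and 0.46 in control arrays, a shift of 0.35 (exact p = 0.10, adjusted 0.15). In both pairs every HOXB4 value lay above every control value, narrowly so for Ccnd3 minus Ccnd2 in HOXB4 2 and control 3, and 0.10 is the smallest p that 3 arrays against 3 allow. Cdk4 minus Cdk6 was 7.42, 5.60 and 7.29 in HOXB4 arrays, against 5.59, 6.60 and 5.52 in control arrays, a shift of 0.87 that overlapped (exact p = 0.20, adjusted 0.20). Without HOXB4 2 the 3 shifts were 0.60, 0.41 and 1.45. The levels of these differences have no meaning of their own on an array, only their change between groups.

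The 7 lists of the wider cell cycle network had medians from -0.13 to 0.16, against -0.24 for the 8 genes. Their single genes ran from -0.96 for Cdkn1c to 0.83 for Cdk17, so some differed by as much as Ccnd2 and Ccne2. Among 16 other cyclins and kinases, 5 had differences below 0 and the median was 0.05. Cdk18, a kinase of the PCTAIRE group, differed by -0.57 (SE 0.17), its relative Cdk17 by 0.83 (SE 0.40) and the neuronal kinase gene Cdk5 by 0.37 (SE 0.31). Cdk17 read 11.28, 9.65 and 10.90 in HOXB4 arrays against 9.54, 10.06 and 9.75 in control arrays, and HOXB4 2 lay among the controls. Its difference was 0.50 without HOXB4 1 and 1.31 without HOXB4 2, and that of Cdk5 ran from 0.15 without control 1 and 0.19 without HOXB4 1 to 0.67 without HOXB4 2.

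The 8 CDK inhibitor genes split, with 3 below 0, 5 above and a median of 0.16, which was 0.02 without HOXB4 1, 0.05 without control 1 and 0.25 without HOXB4 2. Cdkn1b, which encodes p27 and restrains Cdk2, stood at 8.77, 7.98 and 8.33 in HOXB4 arrays and at 7.29, 7.96 and 8.01 in control arrays, a log2 difference of 0.61 (SE 0.26, limma adjusted p = 0.605). HOXB4 2 lay among the controls, and the difference was 0.38 without control 1 and 0.40 without HOXB4 1. Cdkn1a, which encodes the p53 target p21, differed by 0.37 (SE 0.20), or 0.18 without HOXB4 1. Cdkn1c, which encodes p57, differed by -0.96 (SE 0.32), with 6.84, 8.23 and 7.42 in HOXB4 arrays against 8.53, 8.43 and 8.42 in controls, and no overlap. It was -0.63 without HOXB4 1 and -1.33 without HOXB4 2.

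Skp2, the ubiquitin ligase subunit that sends p27 for degradation, read 11.62, 11.89 and 11.43 in HOXB4 arrays, against 12.69, 12.08 and 11.99 in control arrays. It did not overlap between groups and differed by -0.60 (SE 0.21, limma adjusted p = 0.605), or -0.39 without control 1. Among the 14 degradation genes 7 lay below 0 and the median was 0.04, from -0.01 without control 1 to 0.10 without HOXB4 2. Skp1, a subunit of the same ligase, differed by -0.24 (SE 0.11), and Cdc20, an activator of the anaphase-promoting complex, by 0.22 (SE 0.10).

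Of the 16 pocket protein, E2F and partner genes, 10 lay below 0 with a median of -0.05, which ran from -0.10 without HOXB4 2 to 0.01 without HOXB4 3 and was 0.02 under cyclic loess. E2f3, an activating E2F, read 9.28, 9.62 and 9.59 in HOXB4 arrays against 10.34, 9.92 and 9.83 in control arrays, a log2 difference of -0.54 (SE 0.16). E2f5, a repressive E2F, differed by -0.47 (SE 0.19), or -0.28 without HOXB4 1. Rb1, which encodes the retinoblastoma protein, differed by 0.43 (SE 0.22), or 0.25 without HOXB4 1, 0.66 without HOXB4 2 and 0.18 with its features averaged. Of 11 genes that switch CDKs on or off, 8 lay below 0 with a median of -0.03, which was 0.04 under cyclic loess. Cdk7 and Mnat1, parts of the CDK-activating kinase, differed by -0.38 (SE 0.13) and -0.33 (SE 0.14). Cdc25a, the phosphatase that removes inhibitory phosphate from Cdk2, differed by -0.33 (SE 0.12).

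Mitotic regulators centred near 0, with 11 of 18 below and a median of -0.03 that was 0.07 under cyclic loess. Mybl2, which encodes the E2F-induced factor B-Myb, read 8.92, 9.24 and 8.93 in HOXB4 arrays against 9.75, 9.54 and 9.51 in control arrays, a log2 difference of -0.57 (SE 0.13). Espl1, the gene for separase, differed by -0.36 (SE 0.11) and Birc5, which encodes survivin, by -0.25 (SE 0.08). These 3 genes had the smallest p of the list, whose differences ran from -0.57 to 0.50. All 6 proliferation markers lay below 0, the nearest to it at -0.02, and 5 of 6 did so without HOXB4 2. Their median of -0.13 was -0.02 under cyclic loess. Rrm2, a ribonucleotide reductase subunit, read 13.21, 13.18 and 13.16 in HOXB4 arrays against 13.59, 13.58 and 13.46 in control arrays. Pcna, the sliding clamp of DNA replication, differed by -0.15 (SE 0.08) and Top2a, a topoisomerase of S phase to mitosis, by -0.19 (SE 0.12), with -0.11 without HOXB4 1 and -0.31 without HOXB4 2. No gene of these 7 lists passed limma's adjusted test, as was so of all genes.

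**Figure D4:**
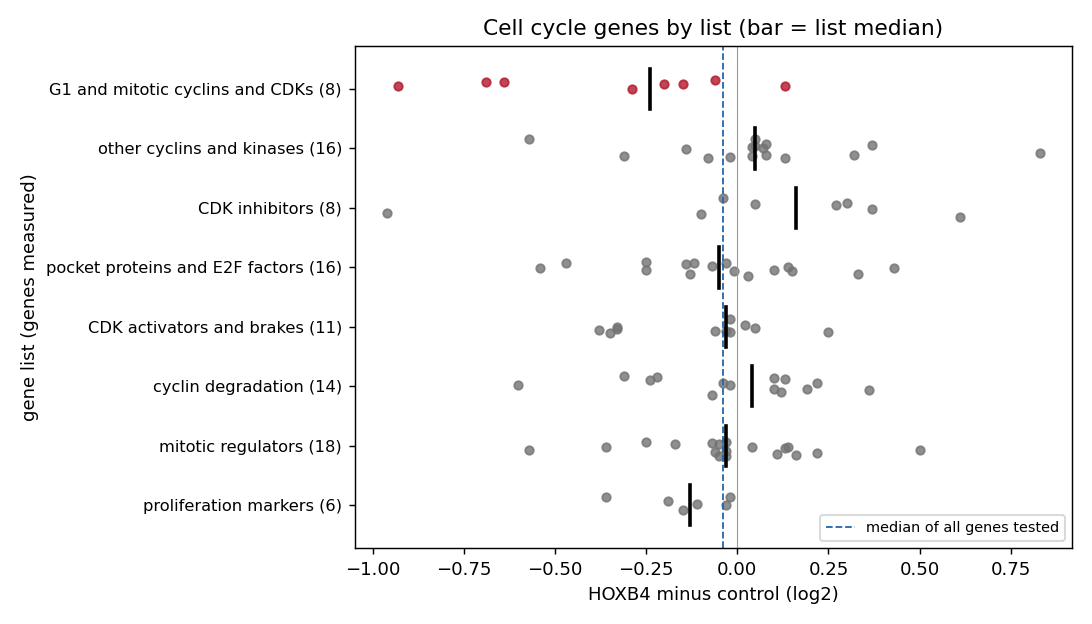
HOXB4 minus control on the log2 scale (horizontal axis) for every measured gene of 8 cell cycle lists, 1 point per gene, the cyclins and CDKs described above in red. Black bars are list medians and the dashed line is the median of all genes tested. The medians run from -0.24 for the 8 measured genes, labelled G1 and mitotic cyclins and CDKs, to 0.16 for the CDK inhibitors. Ccnb1 is not among those 8 genes.

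Cell type markers also differed between arrays, and their part in the differences of the cyclins and kinases was not tested. Endothelial markers had 14 of 14 differences above 0, with Fli1 at 1.15 (SE 0.72), Flt1 at 1.04 (SE 0.70) and Sox7 at 0.48 (SE 0.46). Without HOXB4 2 these were 1.97, 1.84 and 0.94, and without HOXB4 1 they were 0.76, 0.50 and 0.04. Without HOXB4 3, Fli1 was 0.73, and without control 3, Sox7 was 0.22. The list median of 0.48 was 1.16 without HOXB4 2. Cardiac markers had 9 of 11 below 0, with list means of 6.32, 6.98 and 6.26 in HOXB4 arrays and 7.47, 7.14 and 7.18 in control arrays, and Tbx20, Hand2 and Hand1 at -1.89, -1.21 and -3.22 (SE 0.48, 0.31 and 1.06). The means of this list, like the values of Ccnd2 and unlike those of Cdk6, did not overlap between groups. Gene by gene, 2 of the 11 had every HOXB4 value below every control value (18.2%, against 10.2% of all genes), and Hand1 overlapped. Smooth muscle and pericyte markers had 7 of 8 below 0, among them Snai2, Rgs5 and Pdgfrb at -1.03, -2.96 and -1.21 (SE 0.33, 1.13 and 0.48), and Snai2 was -0.67 without control 1. The median of this list was -0.33, or -0.77 without HOXB4 2. Of the PDGFRA-lineage and paraxial mesoderm markers 7 of 9 lay below 0, with list means of 5.26, 6.10 and 5.38 in HOXB4 arrays and 6.17, 5.93 and 5.98 in control arrays. In that list Twist1, Foxf1 and Tcf15 differed by -0.73, -2.16 and -0.31 (SE 0.22, 0.69 and 0.17). Twist1 read 4.85 to 5.13 in HOXB4 arrays, near the median gene. Without control 1, Twist1 was -0.48 and Tcf15 -0.16, and without control 3 Tcf15 was -0.50. Without HOXB4 2, Tbx20, Hand1, Rgs5, Pdgfrb and Foxf1 passed limma's test, at -2.44, -4.56, -4.34, -1.82 and -3.04 (adjusted p = 0.0444, 0.0143, 0.0462, 0.0232 and 0.0131). In that fit 46 of 30702 genes were called, 0.150%. HOXB4 2 was singled out by its likeness to the controls, and for Hand1, Rgs5 and Pdgfrb it read 12.83, 10.98 and 7.94, among the controls, so leaving it out favours such calls and they are no independent support.

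Blood markers were divided, 7 below and 7 above 0, with list means of 7.32, 7.32 and 7.13 in HOXB4 arrays and 7.15, 7.05 and 7.44 in control arrays. Spi1, Tal1 and Gata2 had the smallest p and differed by 0.27, 0.71 and 1.07 (SE 0.15, 0.45 and 0.72), while the list ran from -1.15 to 1.07 with a median of -0.03. Spi1 read only 4.78 to 5.36 over the 6 arrays, near the median gene. Without HOXB4 2, Tal1 was 1.20 and Gata2 1.92, and without HOXB4 3 they were 0.42 and 0.63, with Gata2 at 0.66 without HOXB4 1. Pluripotency markers had 8 of 10 above 0, with list means of 7.37, 7.87 and 7.75 in HOXB4 arrays and 7.39, 7.07 and 7.63 in control arrays. Zfp42, Utf1 and Tbx3 differed by 0.69, 0.73 and -1.07 (SE 0.23, 0.29 and 0.45), or by 0.43, 0.39 and -0.62 without HOXB4 3, and Tbx3 by -1.61 without HOXB4 2. Utf1 read 4.99 to 5.15 in control arrays, also near the median gene.

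For Ccnd2, Ccne2 and Cdk6, the 3 genes whose values spanned 1 log2 unit or more, the genes with the most similar profile were sought among 15343 others above the median. Likeness was the root mean square distance between values centred on each gene's mean over the 6 arrays. Nearest to Ccnd2 were Umps (0.045), a pyrimidine synthesis enzyme, Rrp12 (0.060), a ribosome biogenesis factor, and Wnt2 (0.068). Wnt2 read only 4.63 to 5.85 over the 6 arrays, near the median gene. Umps read 11.72, 12.22 and 11.74 in HOXB4 arrays against 12.82, 12.53 and 12.25 in control arrays, the same order of controls as Ccnd2. Nearest to Cdk6 were the kinase gene Hunk (0.119), Ccdc134 (0.136) and the kinesin gene Kif26b (0.15). Hunk read 10.13, 11.76 and 10.33 in HOXB4 arrays against 11.81, 11.22 and 11.85 in control arrays, with HOXB4 2 again among the controls. Nearest to Ccne2 were Irak1bp1 (0.091), Gm15428 (0.097) and Gm6736 (0.107). With 6 arrays and so many genes, close profiles are to be found by search, and likeness is given as a description.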

How the data were processed

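RNA from 6 samples, 3 with HOXB4 and 3 controls, was hybridised to 1 array each after Trizol and column extraction and labelling of 100 ng with the Affymetrix WT PLUS kit, per the labels' protocols. The deposited log2 values are the authors' expression summaries, made with Affymetrix Expression Console and RMA per the submitters' processing notes. The sources used here give no version, setting or genome build. RMA equalises arrays, so a shift of most genes one way would be partly removed. The precision is limited by the number of arrays.

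Symbols were updated through a RefSeq gene table (GRCm38.p6). Of 65956 features that were not controls, 31258 named 1 gene, 1492 named several and 33206 have no gene listed. Where a gene had more than 1 single-gene feature the brightest by mean was taken, which left 30702 genes. HOXB4 minus control was fitted over all genes by lmFit and eBayes (limma 3.58.1, R 4.3.3). Two-sided p-values were adjusted by Benjamini-Hochberg over all genes, with a threshold of 0.05 and no replicate block. The fit was also run on simulated data with independent noise, which did not copy the likeness of HOXB4 2 to the controls. SE is the moderated standard error. Paralog pairs were tested by exact permutation (scipy 1.17.1), and 2 planned pairs with Ccnd1 were left out for want of a feature of its own. Plots used matplotlib 3.10.9. Named outside the 10 genes were the 3 genes per list with the smallest p, Kdr, Pdgfra and the most similar profiles. Beyond that rule, Hoxb4, Cdk1, Ccnb2, the shared features of Foxm1, Ccnf and Lin52, and Pecam1, Cdh5 and Tek as examples of a list were named after values were seen. Genes and lists were chosen with earlier results of these data known. Promoter sequences are from RefSeq GRCm38.p6, with 6 of the 10 genes matched. Alternatives are given in the closing section.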

Additional observations from a re-analysis of the deposited data

How the results depend on the processing

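Over 15 alternatives, the 8 genes kept their direction except Cdk2, at -0.01 to 0.27 with 1 array left out and below 0 without control 1, and Cdk4, at 0.04 under cyclic loess. No member was called under any of them, and Cdk6 ran from -1.47 to -0.65, Ccnd2 from -0.85 to -0.56 and Ccne2 from -0.80 to -0.47. Some alternatives could not move the 8 differences, since they change only the errors or the genes tested and each member has a single feature. These were the replicate block, a trended and robust prior, the filter on dim features, averaged features, all features tested and no moderation. The number of members lower in HOXB4 cells was 6 to 8 of 8. The count of genes called over the whole table was 0 except without HOXB4 2, giving 0 to 46 when 1 array was left out. The 2 members with no overlap became 4 with arrays centred on their medians, 1 under cyclic loess and 2 to 5 with 1 array left out, where fewer arrays are compared. The share of all genes with no overlap was not computed under these alternatives, so the counts are not read as a result about the members. Under cyclic loess the list medians were 0.12 for other cyclins and kinases (0.05 as reported), 0.07 for mitotic regulators (-0.03), 0.02 for pocket proteins and E2F factors (-0.05), 0.04 for CDK activators and brakes (-0.03) and -0.02 for proliferation markers (-0.13). The median of the 8 members was -0.17 under the same scaling (-0.24 as reported). With the filter on dim features, which kept 4 of the 8 CDK inhibitors, their median was 0.33, and with 1 array left out it ran from 0.02 to 0.25 (0.16 as reported). Rb1 was 0.18 (SE 0.33, limma adjusted p = 0.887) as the mean of its features. Kdr turned to -0.14 without HOXB4 1 and -0.03 without control 1, in a range up to 0.19 without HOXB4 2. Apart from fewer arrays or genes, the cause was not tested. The labels do not say that a number pairs arrays, so the numbers are not taken as pairs. Same-numbered arrays had correlations of deviations from -0.59 to -0.35. Such correlations cannot show whether arrays came from the same experiment, since deviations from a group mean constrain each other. With the replicate block the 8 differences were unchanged by construction, 0 genes were called and limma's adjusted p of the 8 was 0.923 to 0.954. In a paired exact permutation test the 3 ratios had p of 0.25, 0.25 and 0.50, where 0.25 is the smallest that 3 pairs allow. All 8 genes lay above the median gene and passed the filter on dim features.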

Other observations

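Some cell cycle genes share their only array feature with another gene and so stand outside the counts above. The feature of Foxm1, a transcription factor of G2 and mitosis, shared with Tex52, read 8.86, 8.64 and 8.75 in HOXB4 arrays against 8.34, 8.88 and 8.68 in control arrays. That of Ccnf, shared with Mir5134, read 11.53, 11.47 and 11.66 in HOXB4 arrays against 11.46, 11.77 and 11.35 in control arrays. That of Lin52, shared with Gm7020, read 7.95, 8.28 and 7.90 in HOXB4 arrays against 7.95, 8.20 and 8.21 in control arrays. Their log2 differences were 0.12, 0.03 and -0.08 (SE 0.15, 0.14 and 0.14), and the groups overlapped for all 3. With 1 array left out, the feature of Foxm1 ran from -0.03 to 0.24 and that of Ccnf from -0.06 to 0.15. That of Lin52 ran from -0.20 to -0.01.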
